A study of Mus musculus with 6 samples.

Results

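The probe sets described here read 10 granule serine protease genes of the mouse: the chymase genes Mcpt1, Mcpt2, Mcpt4 and Cma1, the basophil protease gene Mcpt8, the cathepsin G gene Ctsg, and the granzyme genes Gzmb, Gzmc, Gzmd and Gzma. They were chosen by name, as every probe set whose platform annotation gives 1 of these genes and no other, which found all 10 genes in 15 of the 12422 probe sets that are not controls. The genes were put on the list with the genotype contrast of these arrays known, so their differences between genotypes are a description of these 6 arrays. An adjusted p below says only whether a probe set was among those called over the whole array. It is no independent evidence about the list.

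Granule serine proteases are stored in active form in the granules of mast cells, basophils, neutrophils and cytotoxic lymphocytes, bound to the proteoglycan serglycin, and are released when these cells are triggered. Chymases cleave after bulky hydrophobic residues, whereas granzyme B cleaves after aspartate and starts apoptosis in the cells it enters. Epithelial cells of the thymic medulla transcribe many genes of other tissues, in part through the nuclear protein Aire, and present the products to developing T cells.

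RNA was taken from medullary thymic epithelial cells of Aire-deficient mice, which carry no intact copy of the Aire gene, and of wild-type mice, both B6/129 F2 animals aged 3 to 5 weeks. The cells had been sorted as negative for the leukocyte marker CD45, positive for the epithelial antibody G8.8, intermediate for CDR1 and high for the costimulatory molecule B7.1. There were 3 arrays for each genotype. A single array read the amplified RNA of 1 pool of thymi from 5 mice of both sexes, so no value belongs to 1 animal, and in the whole sorted fraction fewer expressing cells and less RNA per cell cannot be told apart.

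In order along chromosome 14, the cluster held 15 protein-coding genes in RefSeq (GRCm38.p6), from Cma1 at one end through Cma2, Mcpt1, Mcpt2, Mcpt9, Mcpt4, Mcpt8, Ctsg, Gzme, Gzmd, Gzmg, Gzmn, Gzmf and Gzmc to Gzmb at the other end. Of these, 9 are on the list. Gzma lies on chromosome 13 and served as the unlinked relative. The bases before the transcription start show how alike the genes are, and RefSeq promoters were at hand for 9 of the 10 listed genes, Mcpt2 being the one without. Mcpt1, Mcpt4 and Gzmb are shown because Mcpt1 and Mcpt4 are the closest pair among the listed genes, and the Gzmb probe set was among those called. Each line holds the 250 bases before the start (GRCm38.p6), 5′ to 3′ on the gene's strand, at chr14:56017714-56017963 on the plus strand for Mcpt1, chr14:56062311-56062560 on the minus strand for Mcpt4 and chr14:56262335-56262584 on the minus strand for Gzmb. Capitals mark the motif GATAA, the motif TATAAA and the motif ACCACA on either strand, and no matches overlapped.
Mcpt1: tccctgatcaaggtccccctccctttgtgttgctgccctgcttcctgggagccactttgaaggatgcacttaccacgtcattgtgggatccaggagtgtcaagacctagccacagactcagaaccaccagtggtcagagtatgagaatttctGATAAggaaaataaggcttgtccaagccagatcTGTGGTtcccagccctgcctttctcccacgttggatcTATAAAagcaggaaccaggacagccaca
Mcpt4: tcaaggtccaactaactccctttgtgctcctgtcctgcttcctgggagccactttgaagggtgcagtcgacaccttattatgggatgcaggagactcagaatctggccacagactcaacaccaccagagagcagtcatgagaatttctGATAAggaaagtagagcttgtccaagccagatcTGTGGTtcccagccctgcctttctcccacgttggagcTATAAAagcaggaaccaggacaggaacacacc
Gzmb: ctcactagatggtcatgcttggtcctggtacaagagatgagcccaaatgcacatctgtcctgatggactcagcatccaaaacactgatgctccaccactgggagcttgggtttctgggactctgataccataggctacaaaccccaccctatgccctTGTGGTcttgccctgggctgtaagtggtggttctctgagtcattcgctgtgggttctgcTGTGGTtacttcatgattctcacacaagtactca

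Mcpt1 and Mcpt4 were identical at 213 of 260 aligned positions, or 81.9%, and both held TATAAA close to the start, its first base 28 bases before it in Mcpt1 and 32 bases before it in Mcpt4. Both also held GATAA, the core that GATA factors recognise, 98 and 102 bases before the start. The Gzmb window held neither motif and aligned to the Mcpt1 window at 49.2%. That is close to the 48.7% between Mcpt1 and the unlinked Gzma. Gzmc and Gzmd were the other close pair of listed genes, at 81.3%. ACCACA, the core that Runx factors recognise, lay in 7 of the 8 cluster members with a promoter and in Gzma, against 4613 of 32841 promoter windows of the same length. GATAA lay in 3 of the 8, against 22.6% of all windows, and TATAAA in 3 of the 8, against 12.4%. The E-box core CANNTG lay in 6 of the 8, against 66.2%. Near copies are not independent counts, and a match is a string of letters, not a shown binding site.

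Signals below are quantile normalized and in arbitrary units. Signals under 1.8 were raised to that floor, and 5.53 is the dim limit, under which a probe set was taken as too dim to be relied on. A probe set was tested if it exceeded the dim limit on at least 3 of the 6 arrays, which held for 7768 probe sets and for 4 of the 15 described here. Those 4 were the Mcpt2 probe set, the Gzmb probe set, the Gzma probe set and 1 of the 2 Mcpt1 probe sets. The Mcpt2 and Gzmb probe sets passed solely through their wild-type arrays, so a difference was built into their selection and the count of 4 supports nothing. Among the 4, 2 were lower and none was higher in Aire-deficient cells in the limma fit (at an unadjusted p under 0.05, 3 lower and 0 higher). Over the whole array 1.38% of the tested probe sets were called lower and 0.348% higher, as background from which nothing is read about the list.

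Mcpt2, in the chymase block, and Gzmb, at the far end of the gene order, fell to the floor or close to it in Aire-deficient cells. Mcpt2 (99958_at), a protease of mucosal mast cells, gave 0.2, 0.3 and 1.57 on the Aire-deficient arrays, against 15.5, 10.3 and 17 on the wild-type arrays. All 3 Aire-deficient signals lay below the floor, and all 3 wild-type signals above the dim limit. The log2 difference was -2.96 ± 0.51 (SE, n = 3 arrays each, 95% interval -4.08 to -1.84), and the limma adjusted p was 0.0173. With all 3 Aire-deficient signals set to the floor their spread was not measured, so the difference, SE and interval depend on that floor. Because the Aire-deficient side has only a bound, the difference is given as at least 2.53-fold lower, the wild-type geometric mean of 14 over the dim limit. Mcpt2 lost its call when any 1 of the wild-type arrays was left out: array 1 (-2.90, limma adjusted p = 0.0796), array 2 (-3.20, 0.0519) or array 3 (-2.82, 0.094).

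Gzmb, the aspartate-specific granzyme of cytotoxic T cells and natural killer cells, gave on its probe set 102877_at 0.8, 1.67 and 2.88 on the Aire-deficient arrays, against 13.6, 10.7 and 13.6 on the wild-type arrays. The groups did not overlap, and the wild-type signals lay close together, with an SD of 0.20 on the log2 scale. In Aire-deficient cells the SD was 0.39 after 2 of the 3 signals were raised to the floor, so it is not the spread of the measured signals. Gzmb differed by -2.57 ± 0.50 on the log2 scale (SE, n = 3 each, 95% interval -3.69 to -1.46, limma adjusted p = 0.0329), at least 2.27-fold lower. The Gzmb call was kept without Aire-deficient array 3 (-2.78, limma adjusted p = 0.0464) and lost without any 1 of the other 5 arrays. Those 5 fits gave -2.71 to -2.44 with adjusted p from 0.0575 to 0.115: 0.107, 0.0912 and 0.115 without wild-type arrays 1, 2 and 3, and 0.0575 and 0.0929 without Aire-deficient arrays 1 and 2.

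Mcpt1, which encodes a chymase of mucosal mast cells of the gut, has 2 probe sets. The probe set 94728_f_at gave 16.4, 4.15 and 2.88 in Aire-deficient cells, against 18.4, 13.6 and 26.2 in wild-type cells. Aire-deficient array 1 lay within the wild-type range, while the other 2 Aire-deficient arrays lay under the dim limit. Its log2 difference was -1.69 ± 0.59 (SE, n = 3 each, 95% interval -3.00 to -0.37), which did not pass over all probe sets (limma adjusted p = 0.224). It passed only with Aire-deficient array 1 left out (-2.43, adjusted p = 0.0399) and with array weights (-2.18, adjusted p = 0.0486). The second probe set, 94729_r_at, was too dim to be tested, with 1.23, 2.95 and 3.62 in Aire-deficient cells and 1.92, 6.7 and 6.95 in wild-type cells. Its groups overlapped at wild-type array 1.

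**Figure D1:**
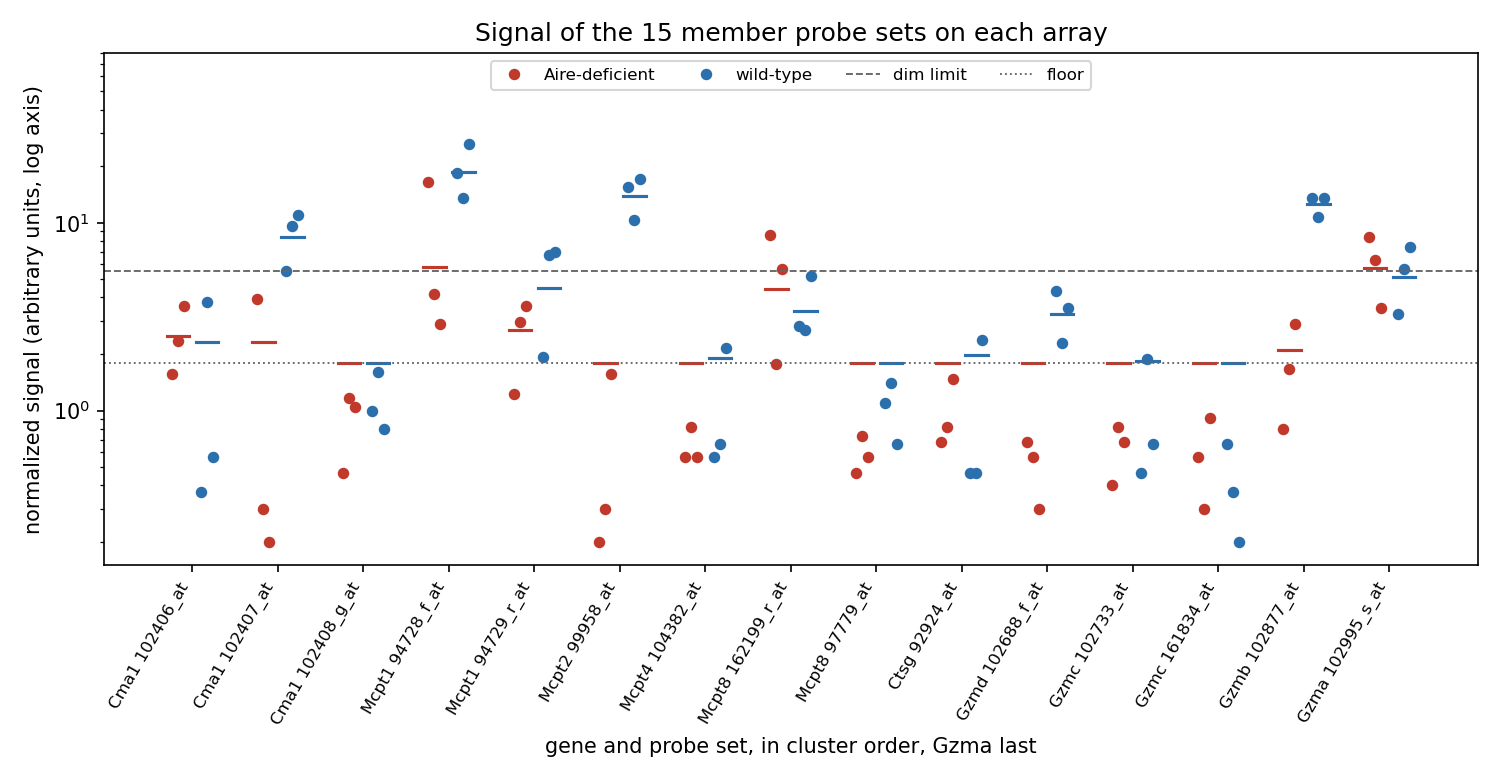
Normalized signal (arbitrary units, log axis) of the 15 probe sets on the 3 Aire-deficient arrays (red, left) and the 3 wild-type arrays (blue, right), in cluster order with Gzma last. Points are arrays, bars are geometric means after signals under 1.8 were raised to that floor, and the dashed line is the dim limit of 5.53. Mcpt2 and Gzmb show wild-type points above the limit and Aire-deficient points under it, whereas most other probe sets lie under the limit in both genotypes.

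Cma1, known as mast cell chymase of connective tissue, was read by 3 probe sets that disagreed. The probe set 102407_at gave 3.91, 0.3 and 0.2 in Aire-deficient cells, against 5.53, 9.65 and 11 in wild-type cells. The groups did not overlap, but wild-type array 1 lay at the dim limit and not above it, so this probe set just missed the filter. It is the member nearest to that threshold on the outer side, as Gzma and Mcpt1 94728_f_at, each with 4 arrays above the limit, are among the tested ones. With the values as deposited Cma1 102407_at was tested and differed by -1.88 ± 0.63 (SE), and after median scaling by -1.85 ± 0.61, without passing in either limma fit (adjusted p = 0.163 and 0.168). The other Cma1 probe sets lay under the dim limit on all 6 arrays. They gave 1.57, 2.35 and 3.62 in Aire-deficient and 0.367, 3.78 and 0.567 in wild-type cells for 102406_at, and 0.467, 1.17 and 1.05 in Aire-deficient and 1, 1.6 and 0.8 in wild-type cells for 102408_g_at.

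The remaining chymase and the basophil and neutrophil proteases gave little signal in either genotype. Mcpt4 (104382_at), a chymase of connective tissue mast cells, gave 0.567, 0.817 and 0.567 on the Aire-deficient arrays and 0.567, 0.667 and 2.15 on the wild-type arrays. Ctsg (92924_at), the neutrophil protease cathepsin G, gave 0.683, 0.817 and 1.47 in Aire-deficient cells and 0.467, 0.467 and 2.37 in wild-type cells. Neither reached the dim limit on any array, so no difference was measurable. Mcpt8, the protease that marks mouse basophils, again had probe sets that disagreed. The probe set 162199_r_at gave 8.6, 1.78 and 5.68 in Aire-deficient cells and 2.83, 2.7 and 5.18 in wild-type cells, with overlapping groups, and 97779_at lay under the floor on all 6 arrays, with 0.467, 0.733 and 0.567 in Aire-deficient and 1.1, 1.4 and 0.667 in wild-type cells.

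Of the other cluster granzymes on the list, Gzmc, next to Gzmb, and Gzmd, farther from it, gave no measurable difference. Gzmc, a granzyme of cytotoxic lymphocytes, gave 0.4, 0.817 and 0.683 in Aire-deficient and 0.467, 1.88 and 0.667 in wild-type cells on 102733_at, and 0.567, 0.3 and 0.917 and 0.667, 0.367 and 0.2 on 161834_at. Gzmd, another such granzyme, gave on 102688_f_at 0.683, 0.567 and 0.3 in Aire-deficient cells, against 4.35, 2.3 and 3.52 in wild-type cells. Its groups did not overlap, with all Aire-deficient signals under the floor and all wild-type signals between the floor and the dim limit, so no fold is given. The suffix f marks probe sets shared by members of a gene family, and a second family probe set, annotated to both Gzmd and Gzme, lay under the floor on all 6 arrays (0.4 to 0.917 and 0.667 to 1.3). In all, the groups did not overlap in 4 of the 15 probe sets, each lower in Aire-deficient cells, against 8.57% of all 12422 probe sets lower and 8.92% higher without overlap, as background.

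Gzma, the tryptase-like granzyme on chromosome 13, overlapped between genotypes. Its probe set 102995_s_at gave 8.38, 6.31 and 3.52 in Aire-deficient cells and 3.25, 5.67 and 7.4 in wild-type cells, around the dim limit in both. The log2 difference was 0.15 ± 0.56 (SE, n = 3 each, limma adjusted p = 0.934), and its 95% interval, -1.08 to 1.38, leaves room for a change of more than 2-fold in either direction. Its interval and that of Gzmb, -3.69 to -1.46, do not meet. Gzmb passed the filter solely through its wild-type arrays, with 2 Aire-deficient signals raised to the floor, so nothing is read from the gap between the intervals. The difference between these genes was not tested.

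Of the cluster genes outside the list, Cma2 was also called lower. It was the only one of 3 with a probe set of 1 gene that was bright enough to be tested. Cma2, a chymase gene between Cma1 and Mcpt1, gave 2.7, 1.38 and 1.78 on the Aire-deficient arrays of its family probe set 95806_f_at, against 13, 15.6 and 21.8 on the wild-type arrays. Like Mcpt2 and Gzmb, it passed the filter solely through its wild-type arrays, so a fall was built into its selection and its call adds no support. The groups did not overlap, and Cma2 differed by -2.99 ± 0.48 on the log2 scale (SE, n = 3 each, limma adjusted p = 0.0128), at least 2.97-fold lower. Leaving out wild-type array 2 (-3.06, limma adjusted p = 0.0606) or wild-type array 3 (-2.80, 0.0824) ended the Cma2 call, as did testing without a filter (-2.99, 0.0709). A probe set annotated to both Cma2 and Mcpt9 gave 8.6, 3.6 and 5.02 in Aire-deficient and 3.8, 2.7 and 3.13 in wild-type cells, so it did not show that fall. Gzmf and Gzmg, granzymes of the same block, were too dim to be tested: Gzmf gave 0.3, 0.467 and 2.08 in Aire-deficient and 3.98, 0.567 and 1.35 in wild-type cells. The brighter Gzmg probe set gave 0.567, 3.23 and 2.78 in Aire-deficient and 3.05, 3.15 and 7.62 in wild-type cells. The pseudogene Mcpt-ps1 gave 0.4, 2.35 and 4.82 in Aire-deficient and 0.467, 0.367 and 0.667 in wild-type cells, under the dim limit throughout. Mcpt1, Mcpt2, Cma1, Cma2 and the granzymes D to G are close relatives, and signals of their probe sets may in part be shared.

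Genes just outside the cluster were set beside it, a choice made after the fit. The nearest 5 genes on each side with a probe set of their own gave 10 genes, of which 7 were tested. Their median log2 difference was -0.01, against 0.05 for all tested probe sets, and 0 were called in limma (1 at an unadjusted p under 0.05, and 1 once the labels' replicate number entered as a block). That gene was Cryl1, a lens crystallin relative on the Gzmb side, with 134, 159 and 120 in Aire-deficient and 54.3, 54.4 and 75.8 in wild-type cells. It was higher in Aire-deficient cells by 1.17 on the log2 scale (limma adjusted p = 0.079), the opposite sign to Gzmb. On the Gzmb side the gap junction genes Gjb2 and Gjb6 differed by -0.01 and -0.04, and on the Cma1 side Dhrs1 and Cideb differed by 0.33 and -0.44.

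**Figure D2:**
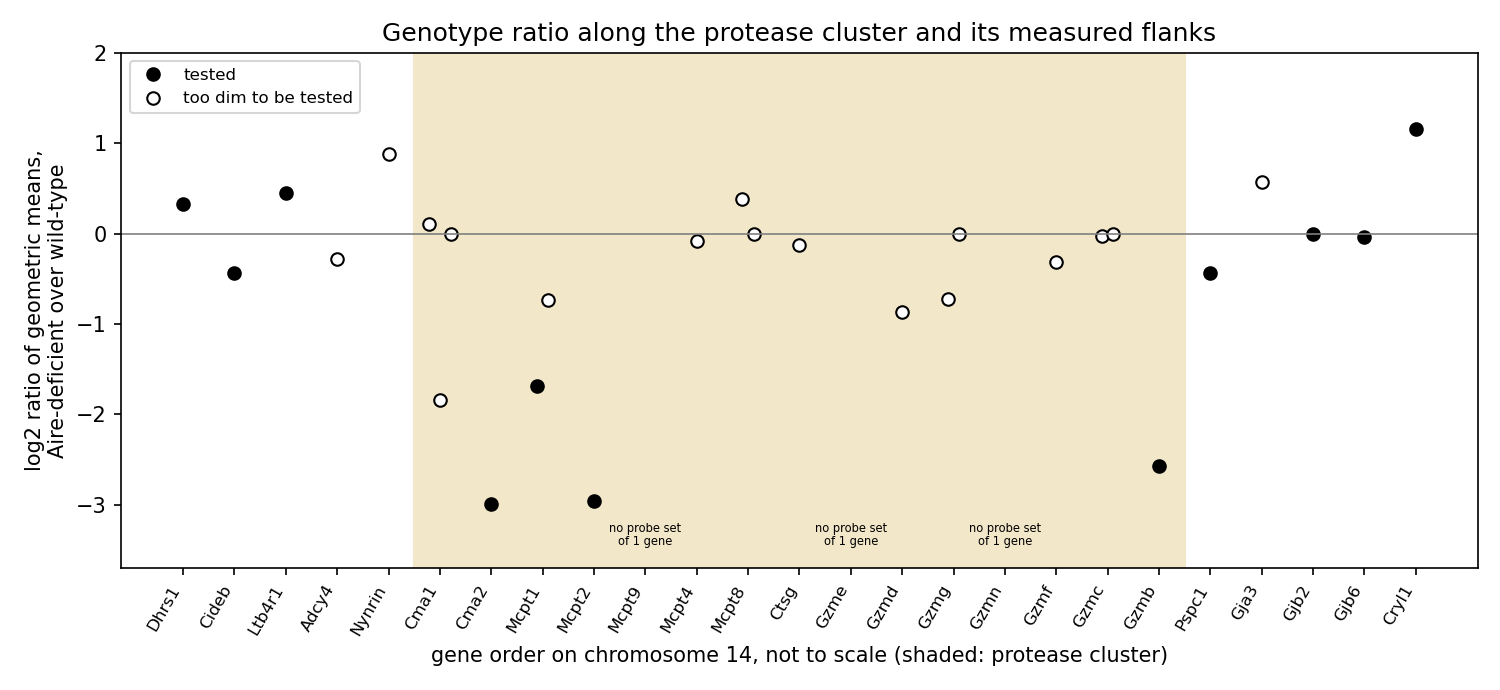
Log2 ratio of geometric means, Aire-deficient over wild-type, for each probe set of 1 gene, with genes in their order on chromosome 14 (not to scale) and the protease cluster shaded. Filled points were tested and open points were too dim. Means were taken after signals under 1.8 were raised to that floor, so open points at or near 0 can be set by the floor and show no measured equality. The lowest points within the cluster are Cma2, Mcpt2 and Gzmb, the genes between Mcpt2 and Gzmb were too dim to be tested or had no probe set of their own, and the flanking genes lie on both sides of 0.

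The patterns most like those of the called members were sought among all tested probe sets of 1 gene, by the root mean square difference of mean-centred log2 signals over the 6 arrays. Nearest to Mcpt2 were Itih3, a plasma protease inhibitor chain (0.15), Omt2b, an oocyte transcript (0.29), and Cck, the precursor of a gut hormone (0.30). Nearest to Gzmb were Cck (0.30), Mcpt2 (0.32) and Zp1, an egg coat protein (0.32). Itih3 gave 1.68, 0.817 and 1.05 in Aire-deficient cells, against 13.1, 12.2 and 19.2 in wild-type cells, and Cck gave 0.683, 0.367 and 0.817, against 9.55, 11.9 and 13.3. These genes share the 6 arrays with Mcpt2 and Gzmb, and all signals under the floor were set equal before patterns were compared. Each of the named neighbours passed the filter solely through its wild-type arrays, as Mcpt2 and Gzmb did, so the likeness was in part built in. Zp1 was not called (limma adjusted p = 0.0993).

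**Figure D3:**
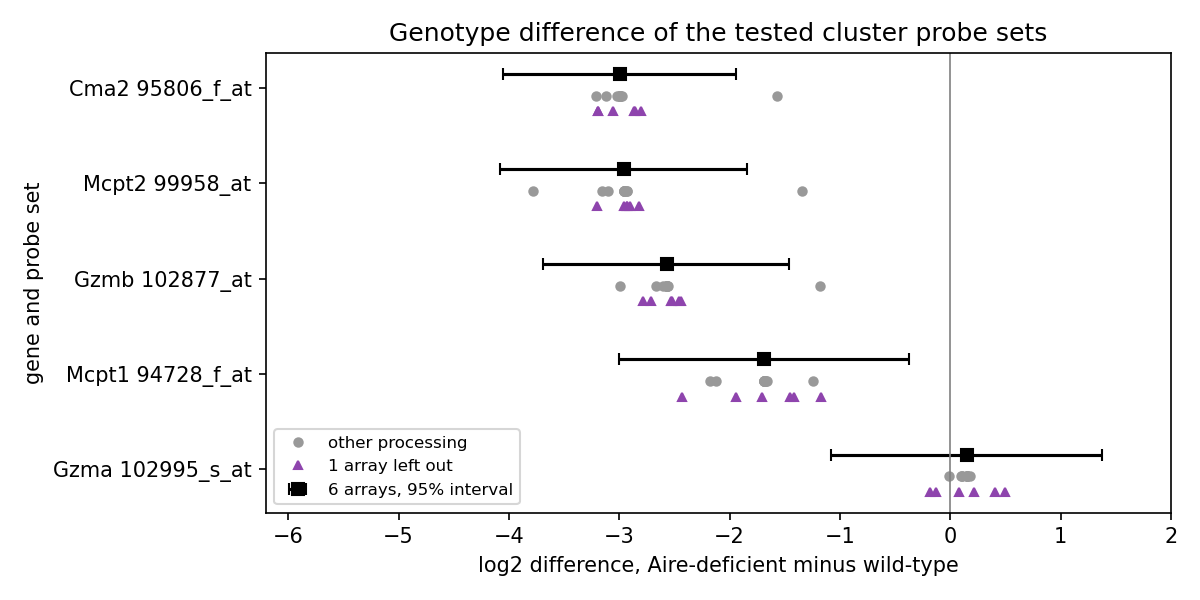
Log2 difference, Aire-deficient minus wild-type, of the tested cluster probe sets and Gzma: squares with 95% intervals for all 6 arrays, grey points for other processing, triangles with 1 array left out. Cma2, Mcpt2, Gzmb and Mcpt1 stay below 0 throughout, with the point nearest 0 for Cma2, Mcpt2 and Gzmb from the higher floor, and Gzma lies on both sides of 0.

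Partner genes of the protease granules were measured beside the proteases. Of 9 such genes with a probe set of 1 gene, 8 were tested and 0 were called in limma. At an unadjusted p under 0.05 in limma 1 was lower and 3 were higher, against 7.8% and 6.44% of all tested probe sets. The median log2 difference of the 8 was 0.36, against 0.05 for all tested probe sets. Srgn, which encodes serglycin, gave 337, 254 and 321 in Aire-deficient and 276, 208 and 268 in wild-type cells, and Ctsc, the peptidase that removes the propeptide of these proteases, gave 88.2, 75.3 and 44.9 in Aire-deficient and 62.2, 51.1 and 48.2 in wild-type cells. Both overlapped between genotypes. Serpinb9, the relative of the human inhibitor of granzyme B, gave 445, 336 and 328 in Aire-deficient cells, against 172, 176 and 260 in wild-type cells. It did not overlap but did not pass (0.88 on the log2 scale, limma adjusted p = 0.169). Serpinb6a, another inhibitor gene of this list, went the other way, with 193, 128 and 188 in Aire-deficient and 286, 260 and 263 in wild-type cells. It did not overlap and did not pass either (-0.69, limma adjusted p = 0.275). Prf1, the pore protein that delivers granzymes, lay under the dim limit on all 6 arrays. Of 5 relatives elsewhere in the genome 1 was tested and 0 were called in limma (1 lower at an unadjusted p under 0.05). Gzmk, Gzmm, Elane and Prtn3 were too dim, and the tissue kallikrein gene Klk1, a family probe set, gave 96.3, 64.8 and 18.2 in Aire-deficient and 190, 138 and 112 in wild-type cells (-1.57, limma adjusted p = 0.203, or 0.0196 with the replicate block). Of 9 lineage regulators of mast cells and cytotoxic lymphocytes, 5 were tested and 0 called in limma (at an unadjusted p under 0.05, 0 lower and 1 higher). Among them Gata2, a factor of mast cells, gave 5.85, 1.87 and 9.38 in Aire-deficient and 5.53, 11.5 and 8.92 in wild-type cells.

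Markers of the cells that normally hold these proteases differed in sign from one another. Of the mast cell markers 8 were on the array, 3 were tested and 0 were called in limma. At an unadjusted p under 0.05 in limma 0 were lower and 2 higher, against 7.8% and 6.44% of all tested probe sets. The defining marker Cpa3, a mast cell carboxypeptidase, lay under the dim limit on all 6 arrays (0.683 to 4.93 and 0.767 to 2.58). The other defining marker, the receptor gene Kit, was measured in both, with 28, 24.3 and 33.2 in Aire-deficient and 14.3, 15 and 18.8 in wild-type cells (0.83, limma adjusted p = 0.251). Hdc, the histamine-forming enzyme, gave 573, 667 and 686 in Aire-deficient and 259, 489 and 495 in wild-type cells. It supplied most of the summed signal of the mast cell list, which was 621 to 745 in Aire-deficient and 305 to 566 in wild-type cells, or 45.7 to 59.5 and 46.2 to 70.9 without Hdc. The list and its sum also hold Cma1, described above. The IgE receptor chain gene Fcer1a gave 0.567, 0.467 and 0.3 in Aire-deficient cells, against 5.15, 2.91 and 5.75 in wild-type cells, without overlap but too dim to be tested. Tpsb2, a mast cell tryptase gene and the third tested marker, gave 14.4, 15.5 and 15.1 in Aire-deficient and 15.5, 27 and 24.6 in wild-type cells (-0.54, limma adjusted p = 0.505). All 3 Aire-deficient signals thus lay above the wild-type ones for Kit and Hdc, and below them for Fcer1a as for Mcpt2, while for Tpsb2 the groups met at 15.5, to the digits given, and were otherwise lower in Aire-deficient cells.

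Of 3 basophil markers on the array, with a summed signal of 78.3 to 107 in Aire-deficient and 25.5 to 37.5 in wild-type cells, nearly all of it from Il4, 2 were tested and the cytokine gene Il4 rose (1.91 on the log2 scale, limma adjusted p = 0.0212). Its brightest probe set gave 91.5, 99 and 67.2 in Aire-deficient cells, against 22.6, 30.8 and 16.7 in wild-type cells. Without Il4 the sum overlapped, at 7.72 to 14.2 in Aire-deficient and 6.67 to 8.83 in wild-type cells, and 1 of the 3 markers is Mcpt8 itself. The Il4 call was kept without wild-type array 2 and lost without any 1 of the other arrays (adjusted p = 0.0616, 0.0798, 0.0694, 0.115 and 0.0501 without wild-type arrays 1 and 3 and Aire-deficient arrays 1, 2 and 3). Of 16 markers of T cells and cytotoxic lymphocytes 8 were tested and 0 were called in limma (0 at an unadjusted p under 0.05). Their summed signal was 96.6 to 156 in Aire-deficient and 83.3 to 131 in wild-type cells. The defining marker Cd3e lay under the dim limit on all 6 arrays, and Ptprc, which encodes CD45, gave 7.93, 7.83 and 10.3 in Aire-deficient and 5.15, 7.22 and 5.33 in wild-type cells.

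Among the neutrophil and myeloid markers, 4 of 10 were called lower with the genotype, as Mcpt2 and Gzmb were, while the tested marker Lyz2 hardly differed. Of the 10, 7 were tested and 4 were called lower in Aire-deficient cells, against 1.38% of all tested probe sets: Ly6g, Ltf, Ngp and Camp, a granulocyte surface marker and 3 granule proteins. At an unadjusted p under 0.05 in limma, 6 of the 7 were lower and 0 higher, against 7.8% of all tested probe sets lower and 6.44% higher. Ly6g, Ltf and Ngp passed the filter solely through their wild-type arrays, so a fall was built into their selection, whereas Camp was above the dim limit on all 6 arrays. Ltf, which encodes lactoferrin, gave 3.72, 0.667 and 0.567 in Aire-deficient cells, against 34.9, 21.4 and 20.5 in wild-type cells (-3.44, limma adjusted p = 0.0057). Camp, the cathelicidin gene, gave 20.9, 18.8 and 25, against 60.8, 168 and 85.3 (-2.16, limma adjusted p = 0.0236). Lyz2, the lysozyme gene of myeloid cells and the brightest of the list, gave 122, 115 and 123, against 140, 134 and 96 (-0.02, limma adjusted p = 0.982). Prtn3, the gene of the neutrophil protease proteinase 3, was too dim to be tested and lay higher in Aire-deficient cells without overlap, at 7.62, 5.53 and 4.73, against 4.15, 3.78 and 2.27. The summed signal of the list was 161 to 202 in Aire-deficient and 320 to 416 in wild-type cells, or 45.3 to 79.6 and 208 to 282 without Lyz2. Without wild-type array 3 a single one of the 4, Ltf, kept its call, and with any other array left out 3 or 4 did. Without a filter on dim probe sets 0 of the 4 and not Il4 were called. The defining marker Mpo gave 2.25, 1.27 and 8.6 in Aire-deficient and 8.03, 11.4 and 16.2 in wild-type cells (-1.80, limma adjusted p = 0.223), and Elane lay under the dim limit on all 6 arrays, as Ctsg did. Csf1r, a receptor gene of myeloid cells, was also lower without being called (-1.54, limma adjusted p = 0.341). The part of other cells in the signals of Mcpt2 and Gzmb was not tested.

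**Figure D4:**
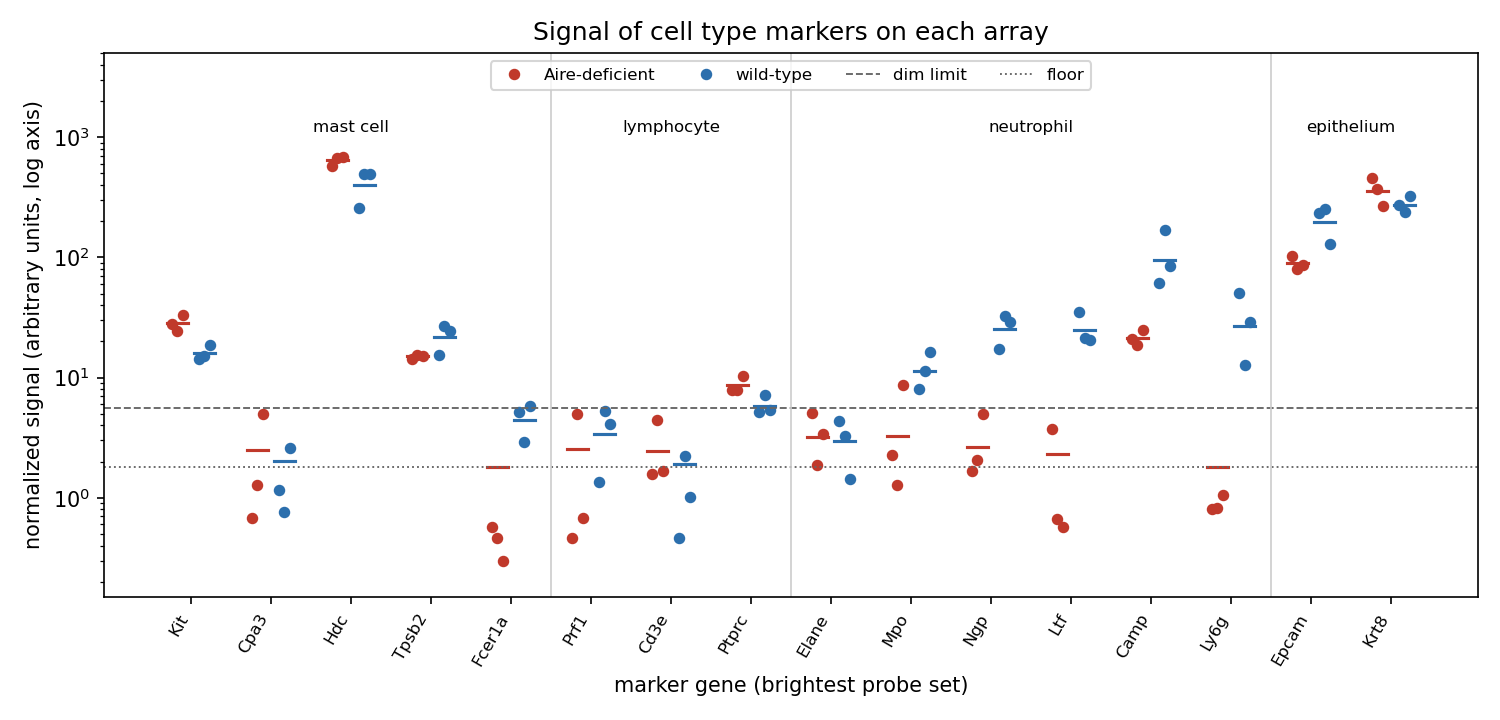
Normalized signal (arbitrary units, log axis) of cell type markers on the 3 Aire-deficient arrays (red, left) and the 3 wild-type arrays (blue, right), with geometric means as bars, the dim limit of 5.53 dashed and the floor of 1.8 dotted. Cpa3, Cd3e, Prf1 and Elane lie under the dim limit on all 6 arrays, Kit and Hdc are higher in Aire-deficient cells without having passed the test, and Ngp, Ltf, Camp and Ly6g are lower in Aire-deficient cells.

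The epithelial markers Epcam and Krt8 were both above the dim limit on all 6 arrays. The cells had been sorted as positive for the epithelial antibody G8.8, so this is no independent check of epithelial identity. Epcam, an epithelial adhesion molecule, gave 102, 79.8 and 86.9 in Aire-deficient and 234, 251 and 130 in wild-type cells (-1.14, limma adjusted p = 0.118, or 0.0315 with the replicate block), and the keratin gene Krt8 gave 455, 367 and 268 and 270, 239 and 321. Krt18, the keratin that pairs with Krt8, gave 220, 193 and 126 in Aire-deficient and 134, 57.8 and 79.8 in wild-type cells, higher where Epcam was lower and also without passing (1.04, limma adjusted p = 0.225). Of 11 epithelial markers on the array 9 were tested and 0 were called in limma (at an unadjusted p under 0.05, 1 lower and 1 higher). Krt5 and Krt14 were under the dim limit. The Aire probe set gave 202, 297 and 211 in Aire-deficient and 59.9, 96.4 and 138 in wild-type cells (1.33, limma adjusted p = 0.0918, or 0.0191 with the replicate block). The sources used here do not place its probes relative to the disruption, so it does not check the genotype labels.

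Over all 7768 tested probe sets 107 were lower and 27 higher in Aire-deficient cells, 102 and 71 on the values as deposited and 97 and 55 after median scaling, where the median of all differences was 0.17 in place of 0.05. Blocking on replicate number gave 262 lower and 150 higher, 3.37% and 1.93%, and the same 2 members, Mcpt2 and Gzmb, were called lower. Wild-type array 2 stood apart by its beta-actin signal, 3′ probes over 5′ probes, at 95.8, against 4.38 to 13.8 on the other 5 arrays. On that array Mcpt2, Gzmb and Mcpt1 94728_f_at had their lowest wild-type signals, 10.3, 10.7 and 13.6. Cma2 95806_f_at, Cma1 102407_at and Mcpt1 94729_r_at had theirs on wild-type array 1 (13, 5.53 and 1.92). With the ratio as a covariate Mcpt2 kept its call (-3.16, limma adjusted p = 0.0283) and Gzmb did not (-2.60, 0.0687).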

How the data were processed

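RNA of 6 pools, 3 Aire-deficient and 3 wild-type, was amplified in 2 rounds with T7 polymerase, per the labels' protocols, which favours 3′ ends. The authors deposited 1 linear intensity for each probe set and array; neither software nor scaling is stated in the labels. The 66 control probe sets among 12488 were dropped. The platform annotation gave 10833 of the rest 1 gene, 396 several and 1193 none, and each listed gene's Entrez identifier matched RefSeq. The 2% trimmed means of the arrays ranged from 19.6 to 26.9, so signals were quantile normalized, raised to a floor at the pooled 20th percentile and log2 transformed. The filter used the pooled 40th percentile on at least 3 arrays (2 when 1 of the 6 arrays was left out). The genotypes were compared in R 4.3.3 by limma 3.58.1 (lmFit, eBayes with trend, 2-sided), adjusted by Benjamini-Hochberg over all probe sets tested, at 0.05. The procedure was tested on simulated data, with changes set in tested probe sets whose mean log2 signal lay more than 1 above that of the dim limit. It recovered 20% of 2-fold and 92% of 4-fold changes, with 12 false among 165 calls. A list with 0 calls may therefore hold changes of about 2-fold. For dimmer probe sets, the mean levels of Mcpt2 and Gzmb among them, recovery was not measured, so larger changes may be missed there. The number of arrays limits the precision, and the spread behind a p-value is that between pools of animals, with their amplification and hybridisation. Where signals were raised to the floor, as in Aire-deficient cells for Mcpt2, Gzmb and Cma2, that spread was in part set by the floor and not measured. No detection calls were used here.

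Every listed probe set is given on each array; other genes come from fixed lists (cluster, granule partners, regulators and cell markers: those called, and defining markers), some with values said to be uncalled. Some genes of these lists were named beyond that rule and were chosen after their values were seen. They were Srgn, Ctsc, Serpinb9, Serpinb6a, Prf1, Klk1, Gata2, Hdc, Tpsb2, Fcer1a, Lyz2, Prtn3, Csf1r, Krt5, Krt14 and Krt18. Members and lists were chosen with earlier results of these data known. For list genes the brightest probe set of 1 gene was used. Arrays with the same replicate number deviated together from their group means (r = 0.37, 0.20 and 0.19, against -0.25 to 0.07 for other pairs across genotypes). The main fit did not pair the arrays, so its SEs, intervals and adjusted p-values ignore this shared deviation. The numbers entered as a block only in the fits named so, on these correlations alone, since the labels do not say that a number is shared. Promoters were aligned globally with Biopython 1.88. Figures were drawn with matplotlib 3.10.9.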

Additional observations from a re-analysis of the deposited data

How the results depend on the processing

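Of the 15 probe sets, 2 were called lower (Mcpt2 and Gzmb) and 0 higher; none was called higher under any alternative run. The count of lower calls was 1 with the floor at the 10th percentile, 0 without a filter and 1 with the 3′ bias covariate, 3 with array weights, and 0 to 2 with 1 array left out, 0 without any 1 of the wild-type arrays. Over the alternatives Mcpt2 lay between -3.78 and -1.34 on the log2 scale (limma adjusted p from 0.00449 to 0.094) and Gzmb between -2.99 and -1.18 (0.00923 to 0.115), nearest 0 with the floor at the 40th percentile. Gzmb lost its call with the floor at the 10th percentile (adjusted p = 0.0635), and without a filter both lost it (0.0525 for Mcpt2, 0.0824 for Gzmb), where 12422 probe sets were adjusted over. Gzma changed sign with array weights (-0.01) and with 1 array left out (-0.18 to 0.50; -0.18 when wild-type array 1 was dropped, -0.13 when Aire-deficient array 1 was); the cause was not tested. With the replicate block Mcpt2 differed by -2.96 (adjusted p = 0.0107) and Gzmb by -2.57 (0.0191), and the block changed no call among the 4 tested members.

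Over all probe sets, 107 lower and 27 higher calls became 10 and 6 without a filter, 262 and 150 with the block, 166 and 72 with array weights, 146 and 43 with a filter by group, and 29 to 71 lower and 2 to 17 higher with 1 array left out. Most listed probe sets lay under the dim limit, where these arrays measure no difference.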
